A study of Mus musculus with 18 samples.

Results

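Mouse embryonic stem (ES) cells of the line PL2F8 were compared with those of the line AB2.2 2 days after withdrawal of leukaemia inhibitory factor (LIF), across 16108 genes measured on Illumina bead arrays. The comparison rests on 4 of the 18 arrays of a time course, chosen by their titles, with 2 arrays of PL2F8 and 2 of AB2.2 at day 2. AB2.2 is a mouse ES cell line derived from strain 129 and widely used for gene targeting, whereas the labels give PL2F8 by its name alone, with no genotype. All 4 samples were total RNA of cultured cells without LIF, and each side of the comparison is 1 cell line. The arrays of both lines at day 0, with LIF just removed, and at day 4 show whether a day 2 difference was there before and after. These days again have 2 arrays a line. All 18 arrays of the series also enter the normalization, the probe filter and the estimate of spread. Nothing in the labels ties the paired arrays of a line to separate cultures. The p-values below rest on the spread between arrays of the same line and day, shared over the series. That spread may therefore be technical.

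LIF acts through its receptor and the transcription factor STAT3 to hold mouse ES cells in the naive state, which is marked by factors such as KLF4, ESRRB, NANOG and ZFP42. When LIF is withdrawn, most cells lose these factors and move towards an epiblast-like state marked by FGF5, OTX2 and DNMT3B. Some cells of such cultures turn instead into primitive endoderm, whose factors GATA6, SOX7 and SOX17 come before the receptors and secreted carriers of visceral endoderm, the epithelium that feeds the early embryo.

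The 4 arrays of day 2 were alike in depth, with mean signals of 331.9 to 355.2 and 42.6% to 43.9% of probes detected, and the arrays of a line correlated across genes at 0.997 in both lines. Genes are not independent replicates, so this describes the arrays only. The labels of both lines as ES cells 2 days out of LIF were borne out by markers of ES cells and early epiblast. All 7 of the former and all 4 of the latter were detected in both lines. The mesoderm markers T, Mesp1, Kdr and Hand1 were detected in neither. Of 3 measured trophectoderm markers, 1 was detected on both arrays of each line. Of 2 measured neural markers, 1 was detected on both AB2.2 arrays and 0 on both PL2F8 arrays. Of 9 markers of feeder fibroblasts 5 were measured, and their summed signal was 781 to 811 in AB2.2 and 933 to 957 in PL2F8. Of these, 2 were detected on both AB2.2 arrays and 3 on both PL2F8 arrays, with Col1a1 and Pdgfrb undetected in both lines. Thy1 was higher in PL2F8 (limma adjusted p = 0.00159). Of 19 measured genes of extracellular matrix and feeder fibroblasts, 4 were higher in PL2F8 and 0 lower (limma, 0 also at an unadjusted p below 0.05). That is 21.1% called, all higher, against 11.8% of all genes higher and 23.7% in either direction. At day 0 and again at day 4, 9 of the 19 were higher and 1 was lower. Of all genes, 14.3% were higher at day 0 and 21.3% at day 4. The 5 markers of primitive endoderm summed to 2110 to 2130 in AB2.2 and 345 to 347 in PL2F8. All 5 were detected on both AB2.2 arrays and 3 on both PL2F8 arrays.

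Of the 16108 genes, 3817 (23.7%) differed between the lines at day 2 at an adjusted p below 0.05. PL2F8 was higher in 1899 (11.8%) and lower in 1918 (11.9%), and most of these differences were small. These shares of all genes are the background for the counts of each gene list below. Differences of at least 2-fold were found in 141 genes higher in PL2F8 (0.875%) and in 191 lower (1.19%). With any 1 of the 4 arrays left out, the genes called higher numbered between 1142 and 1247 and those called lower between 1299 and 1391. Values below are normalized log2 signals, each difference is PL2F8 minus AB2.2 on the log2 scale with its standard error after ±, and each adjusted p is from limma with Benjamini-Hochberg adjustment over all 16108 genes.

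**Figure D1:**
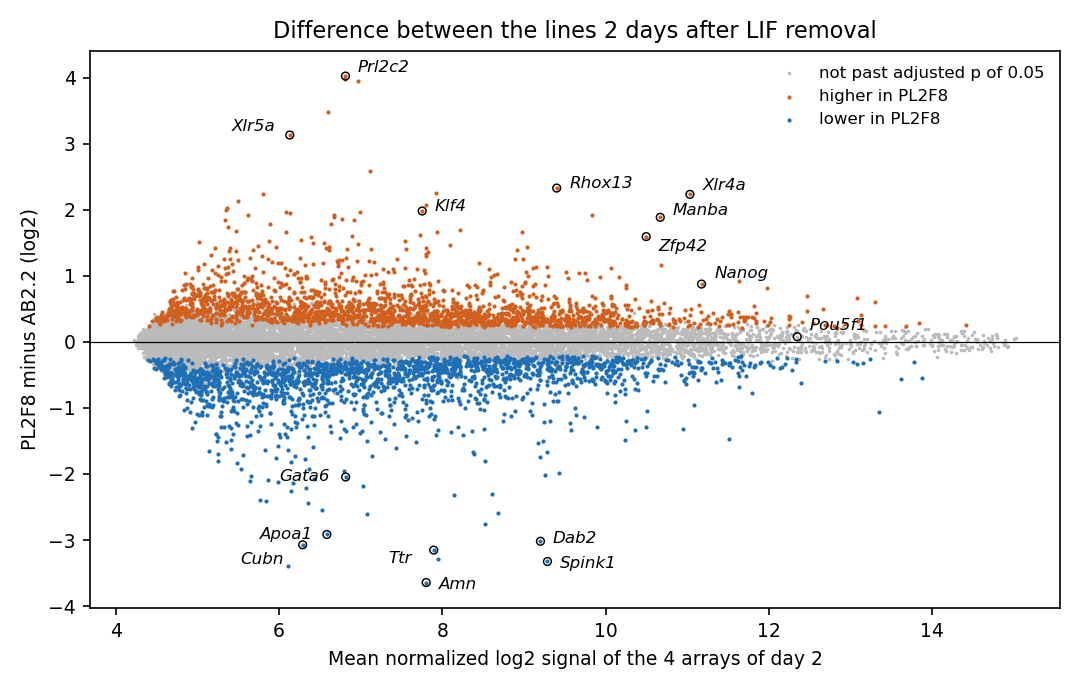
Each point is a gene, with its mean normalized log2 signal over the 4 arrays of day 2 on the x axis and the difference PL2F8 minus AB2.2 (log2) on the y axis; coloured points passed an adjusted p of 0.05. Products of visceral endoderm such as Amn (-3.64) and Dab2 (-3.02) lie far below 0 and Prl2c2 (4.02) far above it, while Pou5f1 (0.08) lies near 0 at a high signal.

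Of the 12 lowest genes of PL2F8, 6 belonged to the list of products of visceral and parietal endoderm. Of 30 listed genes 28 had a kept probe, and 21 of these were lower in PL2F8, 18 of them by at least 2-fold. By limma 0 were higher, also at an unadjusted p below 0.05. The median difference of the list was -1.27, against 0.01 over all genes tested. Because these are bulk samples, fewer endoderm cells and less RNA per endoderm cell cannot be told apart. The lower sum of primitive endoderm markers in PL2F8, given above, stands beside the 21 lower genes of this group. Its part in them was not tested. Dab2 belongs both to those markers and to the 21 genes, and it makes up most of the sum in AB2.2. The sum therefore largely repeats a gene of this list.

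Amn encodes amnionless, which with cubilin forms the uptake receptor of visceral endoderm. It stood at 9.62 on both AB2.2 arrays and at 6.06 and 5.90 on the PL2F8 arrays. The AB2.2 arrays were far above the PL2F8 arrays, a difference of -3.64 ± 0.09 (n = 2 arrays a line, limma adjusted p = 7.62e-11). Its partner Cubn, cubilin itself, stood at 7.86 and 7.79 in AB2.2 and at 4.68 and 4.82 in PL2F8, where it was detected on 1 of the 2 arrays. The difference of -3.07 ± 0.09 (limma adjusted p = 4.30e-10) therefore leans partly on a signal not above background. Dab2, the endocytic adaptor that binds this class of receptor, stood at 10.70 and 10.72 in AB2.2 and at 7.76 and 7.62 in PL2F8. All 3 genes of the receptor complex were thus lower on both PL2F8 arrays than on either AB2.2 array, and both other kept probes of Dab2 were lower too, by -3.03 and -1.83.

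The secreted products behaved alike at day 2. Ttr, transthyretin, the carrier of thyroxine and retinol-binding protein, stood at 9.39 and 9.55 in AB2.2 and at 6.31 and 6.33 in PL2F8, a difference of -3.15 ± 0.16. Apoa1, the main apolipoprotein of high-density lipoprotein, stood at 8.05 and 8.04 against 5.16 and 5.09, a difference of -2.92 ± 0.10. Spink1, an inhibitor of trypsin-like proteases, stood at 10.94 and 10.95 against 7.67 and 7.58, a difference of -3.32 ± 0.10. For these 3 genes the adjusted p lay between 4.21e-10 and 6.46e-08 (limma). The lines did not overlap, which the rule that named these genes among the lowest required.

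Other genes among the 12 lowest were Clic6, of the intracellular chloride channel family (-3.29 ± 0.15), the lysosomal protease gene Ctsh (-2.75 ± 0.09), the pepsinogen gene Pga5 (-2.60 ± 0.07) and the forkhead factor gene Foxq1 (-2.60 ± 0.13). Cyp26a1, whose enzyme breaks down retinoic acid, differed by -2.55 on its brightest probe and by -0.83 on its other one. Acta2, smooth muscle actin, stood at 7.77 and 7.83 in AB2.2 and was undetected on both PL2F8 arrays, so it was at least 8.31-fold lower there (limma adjusted p = 4.34e-10). Its 3 other probes gave smaller differences, of -1.14 to -0.75.

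**Figure D2:**
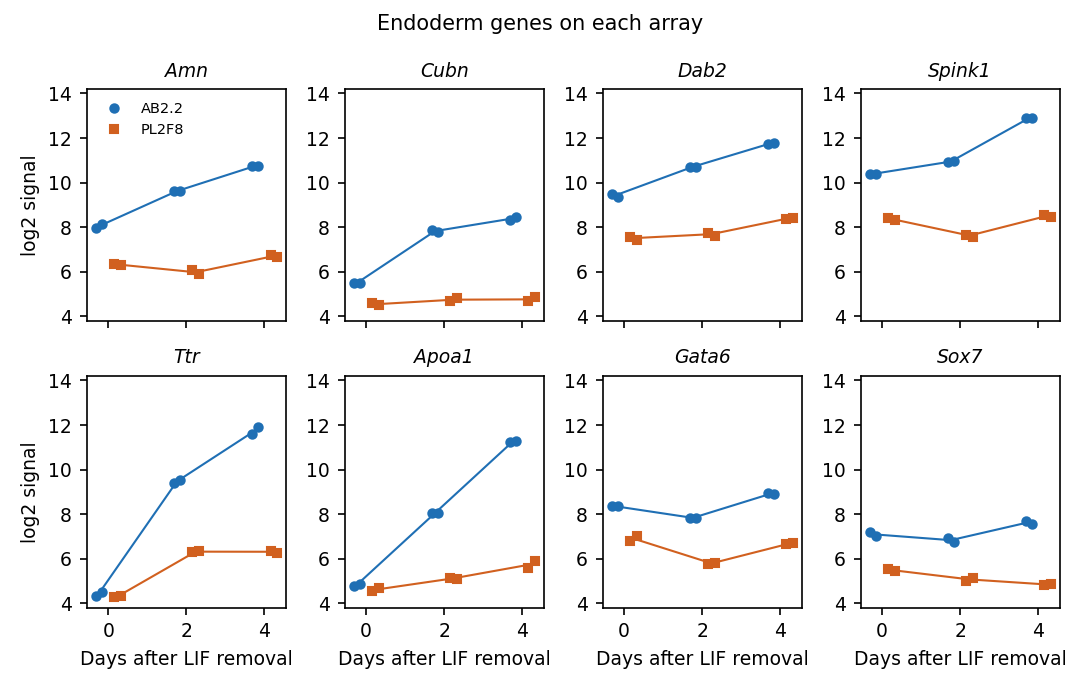
Normalized log2 signal (y axis) of 8 endoderm genes on each array at 0, 2 and 4 days after LIF removal (x axis); circles are AB2.2 arrays, squares PL2F8 arrays, and lines join the means of 2 arrays. At day 2 every AB2.2 array lies above every PL2F8 array for all 8 genes, which the naming rule required of all but Gata6 and Sox7. Ttr starts near 4.3 to 4.5 in both lines at day 0, while Amn, Cubn, Dab2, Spink1, Gata6 and Sox7 differ already then.

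The transcription factors of endoderm followed. Of 10 listed genes, all with a kept probe, 7 were lower in PL2F8 and 0 were higher (limma, 0 also at an unadjusted p below 0.05), with a median difference of -0.96, or -0.78 with undetected genes set at their bounds. Gata6, the factor that starts primitive endoderm, stood at 7.83 and 7.84 in AB2.2 and at 5.77 and 5.82 in PL2F8, a difference of -2.05 ± 0.08 (limma adjusted p = 4.72e-09). Sox7, an HMG-box factor of the same cells, stood at 6.93 and 6.74 against 5.02 and 5.13, a difference of -1.76 ± 0.12, although its other probes gave -1.01 and -0.08. Both factors were lower on each PL2F8 array than on either AB2.2 array. GATA factors bind the letters AGATAA or TGATAA, which were searched on both strands in the 250 bases before the annotated start of each gene. Of 28 endoderm genes lower in PL2F8, 20 had such a sequence in RefSeq, and 2 of these 20 (10%) held the letters, against 11.7% of the 10350 tested genes with a sequence. Dab2 and Hnf4a, a nuclear receptor gene of visceral endoderm, were those 2. Hnf4a, which was chosen for its sequence after its values were seen, stood at 6.44 and 6.10 in AB2.2 and at 5.15 and 5.52 in PL2F8, a difference of -0.93 ± 0.14. Their upstream bases, from the RefSeq annotation of GRCm38.p6, are shown 5′ to 3′ on the strand of the gene, here the plus strand for both, with the searched letters in capitals. A match is a description of the letters and not of binding.
Dab2, chr15:6299539-6299788: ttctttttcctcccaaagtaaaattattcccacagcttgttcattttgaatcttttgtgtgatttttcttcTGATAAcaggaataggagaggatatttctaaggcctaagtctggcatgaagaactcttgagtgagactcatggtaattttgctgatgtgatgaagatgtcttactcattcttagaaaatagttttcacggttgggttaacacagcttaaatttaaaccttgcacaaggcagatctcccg
Hnf4a, chr2:163506607-163506856: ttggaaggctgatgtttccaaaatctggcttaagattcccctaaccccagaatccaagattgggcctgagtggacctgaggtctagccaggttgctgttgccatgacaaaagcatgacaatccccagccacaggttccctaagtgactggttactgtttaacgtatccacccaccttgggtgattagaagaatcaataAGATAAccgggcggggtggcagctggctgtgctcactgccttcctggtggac

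Genes of naive pluripotency were higher in PL2F8 at day 2. Of 23 listed genes 22 had a kept probe; 16 were higher, 1 was lower and 5 did not pass, with a median difference of 0.87. Klf4, a factor downstream of STAT3, stood at 6.87 and 6.65 in AB2.2 and at 8.80 and 8.69 in PL2F8, a difference of 1.98 ± 0.13 (limma adjusted p = 4.42e-07). Zfp42, the zinc finger factor also called REX1, stood at 9.62 and 9.77 against 11.32 and 11.27, a difference of 1.59 ± 0.11. Neither gene overlapped between the lines, and the other 2 probes of Klf4 gave 1.92 and 2.09. Nanog, a homeobox factor of the naive state, stood at 10.65 and 10.83 against 11.51 and 11.72, a difference of 0.88 ± 0.10. Esrrb, an orphan nuclear receptor that can stand in for NANOG in self-renewal, differed by 0.93 ± 0.10 on its brightest probe, while its other probe gave 0.00. Manba, the lysosomal beta-mannosidase gene, differed by 1.89 ± 0.08, with its 2 other probes at 2.00 and 2.01. Jam2, a junctional adhesion molecule, differed by 1.35 ± 0.07 (5 other probes, 0.51 to 2.17), and Tet2, which oxidizes methylated cytosine, by 1.25 ± 0.10. Dppa3, also called Stella, a maternal-effect factor that protects DNA methylation, was the 1 gene of the list lower in PL2F8, at 6.80 and 6.89 in AB2.2 and 5.90 and 6.01 in PL2F8, a difference of -0.88 ± 0.13.

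The core factors shared by naive and primed cells differed less. Of 16 listed genes, all with a kept probe, 8 were higher in PL2F8 and 1 was lower, with a median difference of 0.31. Pou5f1, encoding OCT4, stood at 12.19 and 12.43 in AB2.2 and at 12.43 and 12.34 in PL2F8. Its lines overlapped, and the difference of 0.08 ± 0.11 did not pass (limma adjusted p = 0.669). Sox2, its partner factor, stood at 8.82 and 8.81 against 9.39 and 9.60, higher on both PL2F8 arrays, with a difference of 0.68 ± 0.10. Tcf15, a basic helix-loop-helix factor, differed by 0.96 ± 0.12, and Dppa2, a chromatin factor of pluripotent cells, by 0.68 ± 0.11, with its other probe at 0.24.

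Genes of LIF signalling itself were divided. Of 19 listed genes, all measured, 6 were higher in PL2F8, 2 were lower and 11 did not pass, with a median difference of 0.06. Socs3, the feedback inhibitor that STAT3 switches on, was at 11.15 to 11.27 on the 4 arrays of day 0 and at 6.90 to 7.11 on the 4 arrays of day 2. Its lines overlapped at day 2, with a difference of -0.06 ± 0.10 (limma adjusted p = 0.697). Stat3 differed by 0.21 ± 0.10 and did not pass. Lifr, the LIF receptor gene, was higher in PL2F8 by 0.82 ± 0.11 and Klf5, a Krüppel-like factor of the naive network, by 0.99 ± 0.09. Ier3, an early response gene, was lower by -0.77 ± 0.07 and Junb, an AP-1 subunit gene, by -0.50 ± 0.07.

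**Figure D3:**
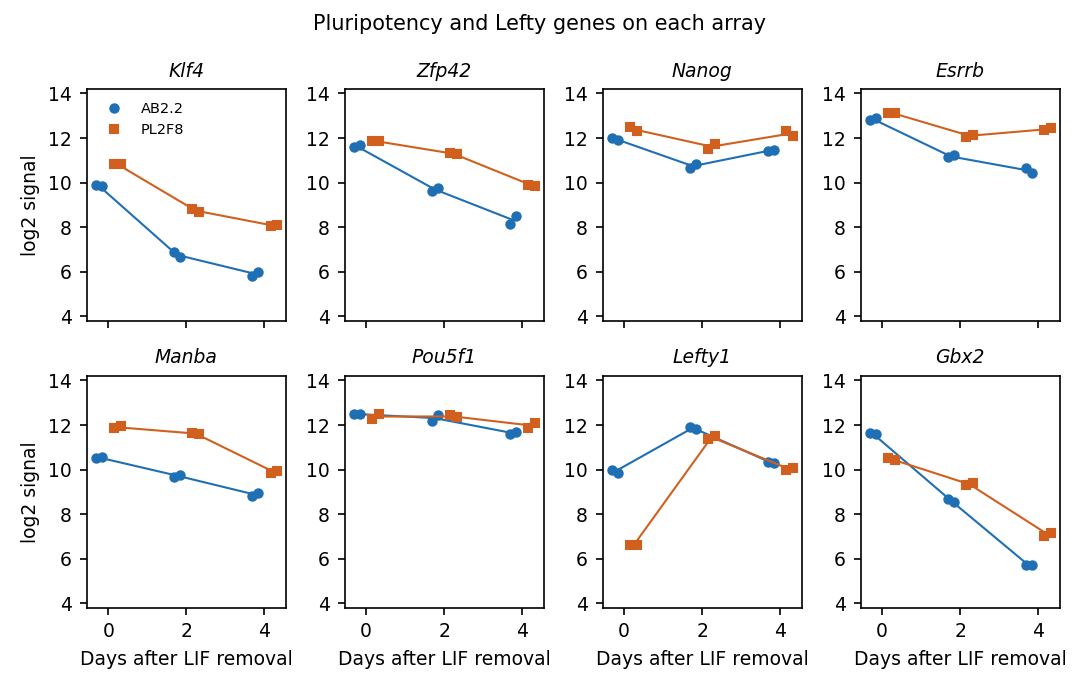
Normalized log2 signal (y axis) of 8 genes on each array at 0, 2 and 4 days after LIF removal (x axis); circles are AB2.2 arrays, squares PL2F8 arrays, and lines join the means of 2 arrays. At day 2 Klf4 lies at 6.65 to 6.87 in AB2.2 and at 8.69 to 8.80 in PL2F8, Pou5f1 overlaps, and Lefty1, at 6.60 in PL2F8 at day 0, has come up to 11.39 and 11.52.

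Fgf5, Otx2 and Dnmt3b, markers of the epiblast-like state, differed by small amounts between the lines. The 4 markers of early epiblast summed to 19800 to 21200 in AB2.2 and to 17200 to 18800 in PL2F8. Fgf5, the growth factor gene that marks epiblast, was undetected on all 4 arrays of day 0 and at day 2 stood at 8.84 and 8.86 in AB2.2 and at 8.66 and 8.50 in PL2F8, a difference of -0.28 ± 0.16 that did not pass (limma adjusted p = 0.240). Otx2, a homeobox factor of the epiblast and anterior brain, differed by 0.20 ± 0.08 and did not pass either. Dnmt3b, a DNA methyltransferase of the early embryo, was lower by -0.30 ± 0.08 (limma adjusted p = 0.0199). Of 24 genes of primed and formative epiblast 21 were measured; 7 were lower in PL2F8 and 3 higher, with a median difference of -0.28, or -0.06 with undetected genes at their bounds. The members that were lower included Cldn6, a tight junction claudin (-1.31 ± 0.09), Car14, a carbonic anhydrase (-1.15 ± 0.11), and Sox11, a factor of neural progenitors (-0.68 ± 0.09). The other probe of Sox11 gave -0.15. Fst, the activin-binding follistatin, stood at 5.90 and 5.97 in AB2.2 and at 4.46 and 4.83 in PL2F8, where 1 array detected it.

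Of 18 measured genes of primitive streak and mesendoderm, 4 were lower and 1 was higher. That is 27.8% called, near the 23.7% of all genes. The median difference of the list was -0.08, or -0.01 with undetected genes at their bounds. T, or brachyury, the factor of early mesoderm, was undetected on all 4 arrays. Lhx1, a homeobox factor of anterior mesendoderm and visceral endoderm, stood at 6.43 and 6.39 in AB2.2 and was undetected in PL2F8, at least 3.17-fold lower. Pdgfra, a receptor found on primitive endoderm and mesoderm, was lower by -1.27 ± 0.14 and Fgf8, a streak growth factor, by -0.59 ± 0.12. Fgf17, of the same growth factor family, was the 1 higher gene, at 8.12 and 8.09 in AB2.2 and 8.91 and 8.87 in PL2F8. Cited1, a transcriptional co-regulator, stood at 6.62 and 6.73 in AB2.2 and was undetected in PL2F8, at least 3.81-fold lower. Among 14 measured neural genes 4 were higher and 3 lower (50% called), with a median difference of -0.04. Ncam1, a neural adhesion molecule, differed by 1.5 on its brightest probe and by 0.03 on the other, Stmn2, a tubulin-binding protein of neurons, by 0.99 ± 0.10, and the axonal motor gene Kif1a by -1.04 ± 0.13.

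The highest genes of PL2F8 were of another kind. Prl2c2, a proliferin, a placental hormone related to prolactin, stood at 4.80 on both AB2.2 arrays and at 8.85 and 8.80 on the PL2F8 arrays. The difference was 4.02 ± 0.08 (limma adjusted p = 1.48e-11), and its other probe gave 2.72. Prl2c3, a near-identical proliferin, stood at 4.71 and 4.91 against 8.79 and 8.80, a difference of 3.99 ± 0.09, with its other probe at 3.83. Because proliferin genes share most of their sequence, the probes may not separate them. A further proliferin, Prl2c5, was undetected on all 4 arrays. The proliferins differed as much at day 0, by 4.35 for both Prl2c2 and Prl2c3. Brca1, the DNA repair factor, stood at 4.97 and 5.02 in AB2.2 and at 8.99 and 8.89 in PL2F8 on its brightest probe, a difference of 3.95 ± 0.13, while its other probe gave 0.11, so the 2 probes of this gene disagree. The unplaced transcripts OTTMUSG00000017677 (3.48 ± 0.08) and LOC100046087 (2.58 ± 0.15) were also among the 12 highest.

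Genes of the X-linked Xlr and Rhox families, clusters used mainly in germ cells and placenta, were higher in PL2F8. Of 23 listed genes 10 had a kept probe, of which 6 were higher and 0 lower (limma, 0 also unadjusted), with a median difference of 0.57. The called members described here are Xlr4a, Rhox10, Rhox9 and Tktl1, of which Tktl1 is in the list but in neither family. Xlr4a stood at 9.88 and 9.96 in AB2.2 and at 12.22 and 12.08 in PL2F8, a difference of 2.23 ± 0.09 (limma adjusted p = 8.72e-09). Xlr5a and Rhox13, relatives outside the list and its count, were among the 12 highest genes. Xlr5a was undetected in AB2.2 and stood at 7.73 and 7.66 in PL2F8, at least 7.76-fold higher. Rhox13, a homeobox gene, stood at 8.21 and 8.27 against 10.55 and 10.58, a difference of 2.33 ± 0.08, and Rhox10 differed by 1.89 ± 0.15. Rhox9 differed by 0.65 ± 0.08 and Tktl1, a transketolase-like gene, by 0.78 ± 0.11, with its other probe at 0.19. Xlr4c, named here after its values were seen because it is a close copy of Xlr4a, was undetected in AB2.2 and stood at 6.37 and 6.33 in PL2F8, at least 3.05-fold higher on its brightest probe, while its other probe gave a log2 difference of 0.78. Over the 220 bases that their upstream windows share, offset by 30 bases, Xlr4a and Xlr4c were identical at 216 positions (98.2%). These windows lie before the annotated start, and no probe sequence was compared. Whether array probes for one read the other was therefore not tested. Both windows hold the 250 bases before the start on the minus strand (RefSeq, GRCm38.p6), with the differing bases in capitals.
Xlr4a, chrX:73082508-73082757: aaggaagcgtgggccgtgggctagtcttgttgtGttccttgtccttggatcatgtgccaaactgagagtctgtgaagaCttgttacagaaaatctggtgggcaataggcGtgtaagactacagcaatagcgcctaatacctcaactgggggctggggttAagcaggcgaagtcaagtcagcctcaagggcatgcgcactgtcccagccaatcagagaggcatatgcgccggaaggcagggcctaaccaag
Xlr4c, chrX:73243131-73243380: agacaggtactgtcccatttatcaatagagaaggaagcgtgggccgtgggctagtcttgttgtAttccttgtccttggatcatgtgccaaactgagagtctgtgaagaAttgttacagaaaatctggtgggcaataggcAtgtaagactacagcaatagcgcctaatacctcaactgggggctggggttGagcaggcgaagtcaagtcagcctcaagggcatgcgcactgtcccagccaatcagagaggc

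Genes of a list of germ line and meiosis, some of them X-linked, were also higher. Of 25 listed genes 18 were measured, of which 9 were higher in PL2F8 and 0 lower (limma, 0 also unadjusted), with a median difference of 0.29. With AB2.2 replicate 1 or PL2F8 replicate 1 left out, 5 were called. Stra8, which starts meiosis, was undetected in AB2.2 and stood at 6.29 and 6.24 in PL2F8, at least 2.88-fold higher. Tuba3a, a testis tubulin, stood at 8.92 and 8.83 against 10.71 and 10.87, a difference of 1.92 ± 0.09. Dazl, an RNA-binding protein of germ cells, differed by 1.04 ± 0.10 and Asz1, of the piRNA pathway, by 1.44 ± 0.19. Other genes among the 12 highest were Efhc2 (2.26 ± 0.11), an X-linked gene of an EF-hand protein, and Notch4, a Notch receptor (2.07 on its brightest probe and 0.45 on the other). Pkd2l1, an ion channel gene, and G6pc, of glucose-6-phosphatase, were undetected in AB2.2 and at least 4.55-fold and 3.54-fold higher in PL2F8.

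Genes of the rare cells that resemble the 2-cell embryo went the other way. Of 10 measured genes of this list, 5 were lower and 1 was higher, with a median difference of -0.44. Zscan4c, the telomere factor that marks such cells, stood at 9.93 and 10.03 in AB2.2 and at 8.50 and 8.45 in PL2F8, a difference of -1.5 ± 0.08. Tcstv3, another marker of that state, differed by -1.37 ± 0.12 and Tmem92 by -0.84 ± 0.10. Both AB2.2 arrays were above both PL2F8 arrays for each. Nlrp14, an oocyte gene, was the 1 higher gene, by 1.33 ± 0.11. At day 4 the order had turned, with Zscan4c higher in PL2F8 by 0.64 (limma adjusted p = 4.96e-05).

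**Figure D4:**
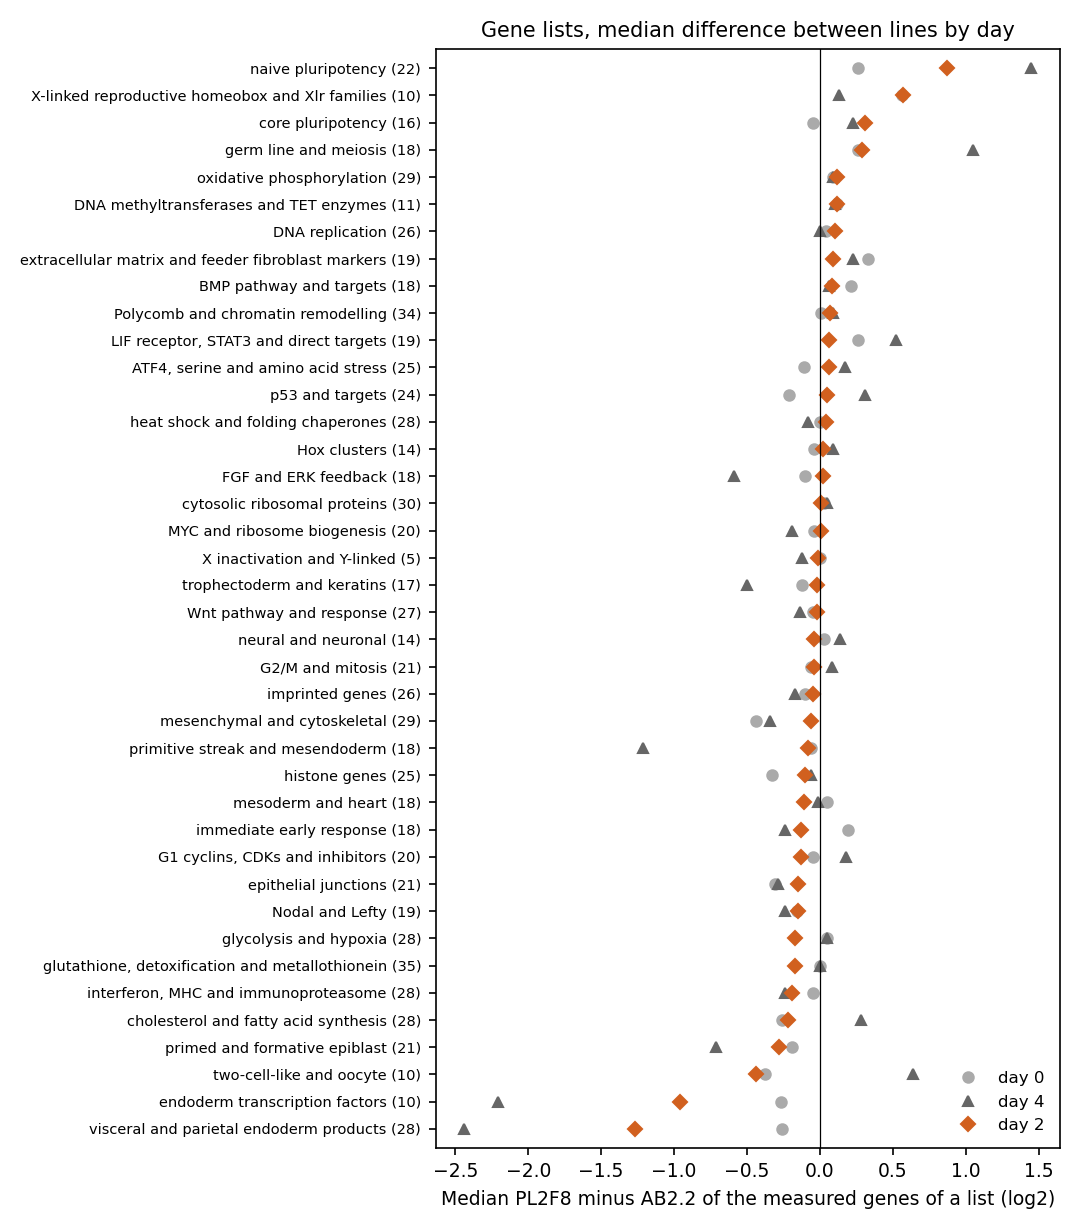
Median difference PL2F8 minus AB2.2 (log2, x axis) of the measured genes of 40 gene lists (y axis, number measured in brackets) at day 0 (circles), day 2 (diamonds) and day 4 (triangles), sorted by day 2; the list of proliferins, whose median was 3.99, is left out for scale. The endoderm lists lie lowest at day 2, at -1.27 and -0.96, and naive pluripotency highest, at 0.87, and each of these 3 lies nearer to 0 at day 0 and farther from it at day 4.

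Metabolic and structural genes showed smaller differences. Of 28 measured genes of glycolysis and the hypoxia response, 11 were lower and 1 was higher, with a median of -0.17; 6 were called lower with median scaling, 4 without PL2F8 replicate 1, and 7 without either AB2.2 array. Aldoc, an aldolase, differed by -0.83 ± 0.09 and P4ha2, a collagen prolyl hydroxylase, by -0.81 ± 0.10 (other probe -0.50), whereas Pfkp, a phosphofructokinase, was higher by 0.99 ± 0.09. Of 28 measured genes of cholesterol and fatty acid synthesis, 9 were lower and 3 higher, and 14 were lower with the authors' matrix or with the mean of all probes. Fdps, farnesyl diphosphate synthase, differed by -0.52 ± 0.08, with its other probe at -0.18, and Elovl6, a fatty acid elongase, by 0.47 ± 0.08, with its other probe at 0.72.

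Of 29 measured mesenchymal and cytoskeletal genes, 10 were lower and 2 higher. Besides Acta2, the contractile genes Myl9 (-2.14 ± 0.12, other probe -1.13) and Acta1 (undetected in PL2F8, at least 2.65-fold lower) were among them, while Zeb1, a repressor of epithelial genes, was higher by 1.19 ± 0.10. Of 21 measured epithelial junction genes, 7 were lower and 3 higher, with the claudins Cldn3 (-1.0 ± 0.09) and Cldn4 (-1.13 ± 0.12) and the tight junction scaffold Tjp3 (-0.94 ± 0.09) lower. The simple-epithelium keratins Krt8 and Krt18, which endoderm and trophectoderm both use, were lower by -0.93 ± 0.08 and -1.0 ± 0.09. Tfap2c, a factor of trophectoderm and of naive cells, was higher by 1.12 ± 0.10, while the trophectoderm factors Cdx2 and Gata3 were undetected in both lines. The matricellular gene Ccn2 was lower by -1.53 ± 0.09, and its relative Ccn1, undetected in PL2F8 on its brightest probe, was at least 2.34-fold lower on it, while its other probes gave log2 differences of -0.78 and -0.18.

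Of 28 measured genes of the interferon response and antigen presentation, 9 were lower and 2 higher, with 1 higher when AB2.2 replicate 2 or PL2F8 replicate 1 was left out. B2m, the light chain of MHC class I, stood at 9.91 and 9.81 in AB2.2 and at 8.92 and 9.02 in PL2F8, a difference of -0.89 ± 0.10, and the immunoproteasome subunit gene Psmb8 differed by -0.95 ± 0.08, with its other probe at -0.48. Of 26 measured imprinted genes, 9 were lower and 2 higher, and no gene was called higher without PL2F8 replicate 1. Igf2, a fetal growth factor, stood at 8.99 and 8.94 in AB2.2 and at 7.64 and 7.45 in PL2F8, a difference of -1.42 ± 0.09. The growth-restraining genes Phlda2 (-1.11 ± 0.08), Grb10 (-0.91 ± 0.09, other probe -0.44) and Cdkn1c (-0.81 ± 0.08) were lower as well. Of 35 measured genes of glutathione and detoxification, 10 were lower and 4 higher, with 6 lower under median scaling, 8 higher with the authors' matrix and 2 higher without AB2.2 replicate 2 or PL2F8 replicate 2; Cbr3, a carbonyl reductase, differed by -1.29 ± 0.10 and Gpx4, which guards membrane lipids, by 0.60 ± 0.08.

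Genes of ribosomal proteins, mitosis and replication hardly differed, with 3.33%, 9.52% and 15.4% of their lists called against 23.7% of all genes. Lists of G1 regulators and histones differed more. Of 20 measured genes of G1 cyclins, CDKs and inhibitors, 4 were higher and 4 lower (40%). Median scaling gave 2 lower there, and the mean of all probes 2 higher. Of 25 measured histone genes, 6 were higher and 8 lower (56%), with 2 higher from the 4 arrays of day 2 alone. Leaving out single arrays in some cases lowered further the counts of G1 genes lower and of histone genes higher. Of 30 measured cytosolic ribosomal protein genes, 1 was higher, Rpl22 (0.30 ± 0.07), and 0 were lower (limma, 1 at an unadjusted p below 0.05). Of 21 measured mitotic genes 2 were lower, among them Kif23, a motor of cell division (-0.57 ± 0.08). That count was 1 with AB2.2 replicate 1 or PL2F8 replicate 1 left out or with median scaling, and 4 with the authors' matrix. Of 26 replication genes 4 were higher, the largest being 0.45 ± 0.14 for Pcna, the polymerase clamp, among those named; 1 was called with any 1 array left out. Of 14 measured Hox genes 0 were called (limma, 0 also at an unadjusted p below 0.05), and 1 was detected in both lines. Cdkn2a, encoding the cell cycle inhibitors p16 and p19, was higher by 1.21 ± 0.17 on its brightest probe, with its other probes at -0.03 and 1.07. Trp53, encoding p53, differed by 0.25 ± 0.08 (limma adjusted p = 0.0352), and its call was lost when any 1 array was left out. Gapdh, a common reference gene, stood at 13.64 to 13.71 on all 4 arrays.

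Much of the difference was already there with LIF just removed, when 27.4% of all genes differed, 14.3% higher in PL2F8 and 13.1% lower. Differences of at least 2-fold were then found in 1.21% of genes higher and 0.652% lower. Of the 141 genes higher in PL2F8 by at least 2-fold at day 2, 127 were called higher at day 0, 128 at day 4 and 0 lower at either day. Of the 191 genes lower by at least 2-fold, 125 were called lower at day 0 and 5 higher. At day 4, when 42% of all genes differed, 21.3% higher and 20.6% lower, 136 of the 191 were lower and 27 were higher. By at least 2-fold, 3.56% of all genes were higher at day 4 and 3% lower. The 191 genes had a median of -0.54 at day 0, -1.30 at day 2 and -1.31 at day 4. Each day has its own arrays, and the differences correlated across genes at 0.544 between day 0 and day 2 and at 0.516 between day 2 and day 4.

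The change of the line difference from day 0 to day 2 was tested directly. It passed in 1630 genes (10.1%), with a rise in 663 (4.12%) and a fall in 967 (6%), and median scaling gave 383 and 1231. Changes of at least 2-fold were rises in 64 genes (0.397%) and falls in 172 (1.07%). Of the 28 measured endoderm products the difference fell in 16 and rose in 0 (limma, 0 also unadjusted), and of the 22 naive pluripotency genes it rose in 14 and fell in 0 (1 unadjusted). The difference of Pga5 went from 0.46 at day 0 to -2.60 at day 2, a change of -3.05, and that of Clic6 changed by -3.13. Ttr was undetected in both lines at day 0, so its change of -3.02 ± 0.23 rests there on signal not above background. Apoa1 stood at 4.80 and 4.86 on the AB2.2 arrays and at 4.56 and 4.67 on the PL2F8 arrays of day 0, and its difference changed by -2.70 ± 0.15. By contrast Sox7 differed by -1.60 at day 0 and -1.76 at day 2, a change that did not pass (-0.16 ± 0.17).

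The 5 largest rises belonged to genes that were lower in PL2F8 at day 0. Lefty1, an extracellular inhibitor of Nodal, stood at 9.99 and 9.83 in AB2.2 and at 6.60 on both PL2F8 arrays at day 0. At day 2 it stood at 11.91 and 11.84 in AB2.2 and at 11.39 and 11.52 in PL2F8, so that the difference went from -3.31 to -0.42 (change 2.89 ± 0.12, limma adjusted p = 7.55e-08). Its neighbour gene Lefty2 went from -2.33 to -0.49 and Dppa3 from -2.98 to -0.88. Gbx2, a homeobox factor of the naive network, turned from lower in PL2F8 at day 0 (-1.15) to higher at day 2 (0.72 ± 0.10), as did Fgf17 (-1.28 and 0.78). Gbx2 went from 11.64 and 11.59 at day 0 to 8.67 and 8.56 at day 2 in AB2.2, and from 10.52 and 10.42 to 9.29 and 9.39 in PL2F8.

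From day 2 to day 4 the line difference changed in 4071 genes (25.3%), with a rise in 2104 (13.1%) and a fall in 1967 (12.2%). By at least 2-fold it rose in 2.84% of genes and fell in 1.83%. Median scaling gave 1001 and 6165, together with a shift of the median change over all genes from -0.01 to -0.32, so directions over this interval hold only relative to the other genes of an array. The mean signals at day 4 were 384.1 and 391.2 in AB2.2 and 283.6 and 286.0 in PL2F8, and their part in the result was not tested. Relative to them, Ttr went on from -3.15 at day 2 to -5.43 at day 4, Apoa1 from -2.92 to -5.51 and Fgf5 from -0.28 to -2.94, while Klf4 went from 1.98 to 2.17.

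Genes of 1 end of chromosome 12 were lower in PL2F8 together. Along each chromosome, in the gene order of GRCm38, the median difference was taken over each run of 25 neighbouring measured genes. Of the 12579 runs the middle 90% by rank lay between -0.12 and 0.14, whereas the lowest, from Adssl1 to Rapgef5 on chromosome 12, had a median of -0.62, with 16 of 25 genes lower and 0 higher. The runs below -0.3 on this chromosome joined into 1 stretch of 81 measured genes from Tcl1 to Sp8, the last measured gene of the chromosome. This stretch was chosen for its low values, so its numbers are a description. Its median was -0.45, with 47 genes lower, 2 higher and 73 below 0, against a median of 0.03 over the other 353 genes of chromosome 12, of which 43 were higher and 29 lower. On the arrays of other days its median was -0.41 at day 0, with 48 genes lower, and -0.44 at day 4, with 46 lower. The median of the stretch was thus of like size at the 3 days, and the functions of its genes were not tested. Single genes departed from it. The imprinted gene Dlk1 differed by 1.36 at day 0 and by -0.41 at day 2, and Tcl1 by 0.90 at day 2. Cep170b, of a centrosomal protein, stood at 9.38 and 9.41 in AB2.2 and at 8.29 and 8.28 in PL2F8, a difference of -1.12 ± 0.08, close to its -1.07 at day 0 and -1.29 at day 4. Crip2, a LIM-domain protein, differed by -0.99 ± 0.08, Tmem121, a membrane protein gene, by -0.91 ± 0.08, and the chaperone gene Hsp90aa1 by -0.52 ± 0.09. Adssl1, a muscle-type enzyme of purine synthesis, differed by -1.45 on its brightest probe and by -1.09 and -0.20 on the others. Amn lies in this stretch too, and it had the largest difference there. On other chromosomes 4 runs lay below -0.3, and the highest run, on the X chromosome, had a median of 0.31.

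**Figure D5:**
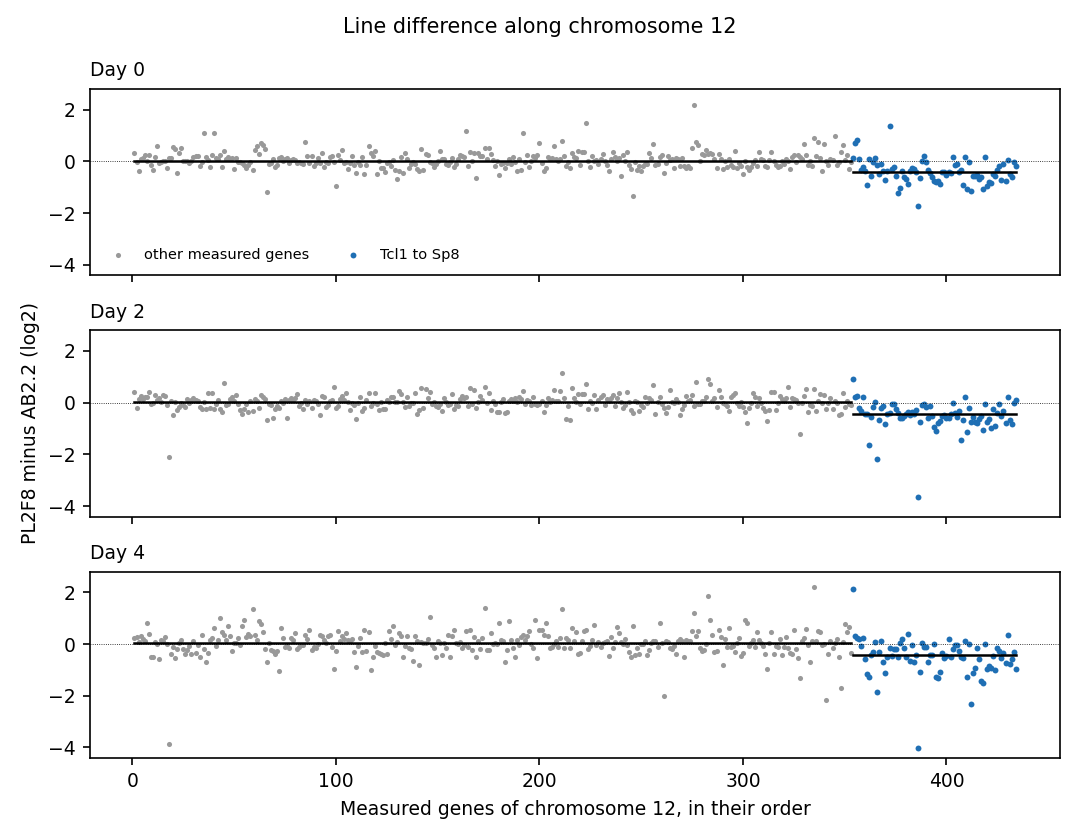
Difference PL2F8 minus AB2.2 (log2, y axis) of the 434 measured genes of chromosome 12 in their order (x axis) at day 0, day 2 and day 4; genes from Tcl1 to Sp8 are coloured and horizontal bars are the medians of both parts. At each of the 3 days the coloured genes lie mostly below 0, with medians of -0.41, -0.45 and -0.44, and the lowest coloured point of each panel is Amn.

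The medians of whole chromosomes differed little, from -0.02 to 0.03 over the autosomes and the X chromosome. A median near 0 does not mean few called genes. On the X chromosome 97 of 481 measured genes were higher and 64 lower, against 11.8% and 11.9% of all genes. The Y chromosome, with 7 measured genes, had the lowest median, -0.09. The Y-linked genes Ddx3y, an RNA helicase (-0.31 ± 0.12), and Eif2s3y, a translation factor (-0.01 ± 0.11), were detected in both lines and did not pass, and Zfy1, a zinc finger gene, was higher in PL2F8 by 1.04 ± 0.11.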

How the data were processed

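Gene expression of the mouse ES cell lines AB2.2 and PL2F8 was measured on 18 Illumina bead arrays, of which the 4 of day 2 carry the comparison. Per the file headers, the deposited table holds a raw signal intensity and a detection p-value for each probe and array. The deposited series matrix holds the authors' normalized signal, whose values were matched by quantile normalization without background correction. The software behind both is not given in the sources used here. Of 45281 lines, 445 had shifted columns and were left out. Each probe took the name of the matrix line that its values reproduced, and these names came from the platform annotation or from RefSeq. Background was corrected with normexp on 936 negative controls (offset 16) and log2 values were quantile normalized. Probes were kept if detected (p below 0.05) on at least 2 of 18 arrays, and each gene took its kept probe of highest mean. A mean for each line and day was fitted with limma 3.58.1 (R 4.3.3; 8 residual and 4.11 prior degrees of freedom), with Benjamini-Hochberg adjustment over 16108 genes; the spread is thus shared over all 18 arrays, including the PL2F8 arrays of days 6 and 8, whose mean signals were 134.8, 137.4 and 60.1. An exact permutation test of 2 against 2 arrays cannot go below p = 0.333. For a gene undetected on both arrays of a line, the fold is a lower bound against the lowest detected signal of each array (4.71 to 4.77 on the log2 scale) or the probe's own signal, whichever was higher.

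The genes named are the 12 highest and 12 lowest differences without overlap, the 5 largest changes each way from day 0 to day 2, up to 4 genes of smallest p in each of 41 lists, a set of markers and reference genes, and up to 4 genes of the extreme chromosomes and stretches. Some of the genes so chosen are not reported here. The lists hold 1013 genes, of which 850 were measured. The comparison and the lists were chosen with earlier results of these data known, and the bounds of the stretch on chromosome 12 were set from these data. In data simulated for this comparison, 200 of 16108 genes were changed, with normal noise of 1 spread per gene on every array. Recovery was 61.2% for changes of 0.5 on the log2 scale, 92.5% for changes of 1 and 100% for changes of 2. There were 11 false calls (6.11% of calls). The spread of the real arrays differed between groups, so recovery in them may differ. Alternatives were another background correction, scaling, filter, probe rule and choice of arrays, the authors' matrix, a replicate block and leaving out each array. Replicate numbers were not used to pair the arrays in the main fit. Deviations of same-numbered arrays of day 2 correlated at 0.00547 across genes. That value cannot show whether such arrays were handled together. Python 3.11.15 with pandas 2.3.3, numpy 2.4.6 and scipy 1.17.1 made the summaries.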

Additional observations from a re-analysis of the deposited data

Results flagged for a closer look

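For 36 of the named genes the line difference changed from day 0 to day 2 by at least 2-fold, in a test of the change itself (limma, adjusted over 16108 genes, n = 2 arrays in each of 4 groups). Values are changes of the difference PL2F8 minus AB2.2 on the log2 scale, and no explanation was tested.

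Among the falls were 8 genes of the list of endoderm products. The change was -1.93 for Amn, -1.30 for Spink1, -2.12 for Cubn, -1.11 for Dab2, -3.02 for Ttr, -2.70 for Apoa1, -1.01 for Pdgfra and -2.24 for Cited1. Outside the lists it was -3.13 for Clic6, -2.50 for Ctsh, -3.05 for Pga5 and -2.38 for Cyp26a1. Changes that lean partly on a signal not above background include those of Ttr, Apoa1, Cubn, Lhx1 (-1.78), Cited1, the mucin gene Muc13 (-2.40), the membrane protease gene Tmprss2 (-1.75), Ccn1 (-1.58) and Fst (-1.24). Further falls were -1.31 for Ccn2, -1.14 for the homeobox gene Msx1, -1.12 for the lipoprotein receptor gene Vldlr, -1.12 for Kif1a, -1.43 for B2m and -1.12 for Adssl1.

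Among the rises, the change was 2.89 for Lefty1, 1.85 for Lefty2, 2.10 for Dppa3, 2.07 for Fgf17, 1.87 for Gbx2, 1.36 for Zfp42 and 1.02 for Klf4. Other rises were 1.72 for the stress gene Gadd45g, 1.30 for the histone gene H2bc4, 1.19 for Notch4, 1.09 for the Wnt inhibitor Notum, 1.05 for Stmn2 and 1.04 for Zfy1.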

How the results depend on the processing

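With 1 array of day 2 left out, the lone array was assumed to vary like the other groups. Genes called higher at day 2 then numbered 1142 to 1247 instead of 1899 and genes called lower 1299 to 1391 instead of 1918. The line difference rose from day 0 to day 2 in 380 to 425 genes instead of 663 and fell in 618 to 697 instead of 967. From day 2 to day 4 it rose in 1681 to 1739 genes and fell in 1462 to 1536. Median scaling in place of quantile normalization gave 383 rises from day 0 to day 2, and 1001 rises and 6165 falls from day 2 to day 4; it moved the median of all genes by day to 0.09 at day 0, 0.04 at day 2 and -0.24 at day 4. A replicate block gave 1844 genes higher and 1859 lower at day 2, and of the 197 named genes it lost only Fen1 (limma adjusted p = 0.0523 with the block). Endoderm products numbered 20 to 21 lower, endoderm factors 7 to 8 lower and naive genes 16 higher under every alternative run, and the stretch on chromosome 12 had 41 to 50 genes lower. Its median of -0.45 ranged from -0.53 to -0.30, the latter with the authors' matrix; the alternatives for this stretch and for the list counts were chosen after seeing the data. No named gene reversed, and leaving out 1 array lost the call of 13 or 14 of the 197. Smaller lists moved more: oxidative phosphorylation genes numbered 2 to 9 higher and glycolysis genes 4 to 13 lower.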
